A study of Rattus norvegicus with 9 samples.

Results

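The matrix metalloproteases (Mmp genes), the ADAMTS proteases, the ADAMTS-like proteins and the tissue inhibitors of metalloproteases (Timp genes) were followed through a rat femoral fracture treated with 3 kinds of gel. The genes were chosen by name: every protein-coding gene of the deposited count table with a symbol of the form Mmp, Timp, Adamts or Adamtsl and a number, apart from Mmp9. This gave 48 of 35360 genes, namely 21 Mmp, 19 Adamts, 4 Adamtsl and 4 Timp genes. Values of the libraries played no part in that rule.

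RNA came from the middle of the fractured femur, and 9 libraries were sequenced, 3 in each of 3 groups. The Gel group (library names Control) received the gel alone. The ALN gel group received the same gel with the bisphosphonate that the labels abbreviate as ALN, a drug class that stops osteoclasts from resorbing bone. The Mg-ALN gel group (library names BiMOF, titles Mg-ALN@Gel) received a gel with a metal-organic material built from magnesium and ALN, designed as a bone adhesive against the fibrosis that the bisphosphonate can bring. All 3 groups share the fracture and a gel, and no group without gel was analysed here. Strain, sex, age, dose and time after fracture are not given in the sources used here, and the labels do not say whether each library is 1 animal or a pool. The tests below thus judge differences against the spread of these 9 libraries alone, part of which may be technical.

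Fracture repair lays down a fibrous and cartilaginous matrix and then removes it again. Collagenases cut the triple helix of fibrillar collagen, gelatinases and stromelysins digest the cut chains and proteoglycans, and membrane-type enzymes work at the cell surface, where they also activate other family members. The ADAMTS enzymes cleave aggrecan and versican or trim the ends of procollagen, the ADAMTS-like proteins lack the protease domain, and TIMPs block the active sites of the enzymes. Messenger RNA says nothing of activation, which most of these enzymes need, so the values below are levels of transcript. In bulk RNA, fewer cells of a type and less RNA per cell cannot be told apart.

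Total counts lay between 13388689 and 18763270 per library, and mitochondrially encoded genes took 4.16% to 39.5% of them. The 8 osteoblast markers, which fit tissue from bone, were all detected in every library, at a summed 16104 to 104690 CPM, which are counts normalised to library sizes that were scaled by the TMM method. ALN gel library 1 stood apart: it had the highest mitochondrial share, 39.5%, and the lowest summed fibroblast markers, 3131 CPM against 11447 to 30529 CPM in the other 8. It was also the lowest of the 9 libraries in 21 of the 38 family members that could be tested, so some of the results below are given without it as well. The counts of signs and of lowest group means include it.

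Of the Mmp genes with enough counts to test, 6 lie in 1 cluster on chromosome 8, and their promoters are printed here because neighbouring genes had fold changes of opposite sign. In the coordinates of the deposited table, whose genome build is not given in the sources used here, the cluster spans chr8:5522739-5901049, 378.3 kb. It holds, in order, Mmp13, Mmp12, Mmp1b, Mmp3, Mmp1, Mmp10, Mmp8, Mmp27, Mmp20 and Mmp7. Of the 48 genes, 38 had an entry in a RefSeq table of promoters on assembly GRCr8. The motif TGAGTCA, the binding site of the AP-1 factors Fos and Jun, was sought on both strands in the 250 bases before each start. It stood in 1093 of 27457 promoters of all genes (3.98%), in 6 of the 38 family promoters (15.8%), in 6 of the 10 promoters of the cluster (60.0%) and in 0 of the other 28. The last 100 bases before the start follow, 5′ to 3′ on the strand of the gene, with the motif in either orientation in capitals. Mmp8 is the tested gene of the cluster without it, and Timp1, on the X chromosome, is the family member with the smallest p of any comparison.
Mmp13 (chr8:12782729-12782828, plus strand): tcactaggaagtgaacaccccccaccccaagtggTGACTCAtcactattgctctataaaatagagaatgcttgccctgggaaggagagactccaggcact
Mmp12 (chr8:12866552-12866651, plus strand): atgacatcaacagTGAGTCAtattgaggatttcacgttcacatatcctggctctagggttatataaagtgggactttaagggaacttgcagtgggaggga
Mmp3 (chr8:12925181-12925280, plus strand): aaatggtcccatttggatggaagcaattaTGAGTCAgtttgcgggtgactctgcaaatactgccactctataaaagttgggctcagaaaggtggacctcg
Mmp10 (chr8:12974607-12974706, plus strand): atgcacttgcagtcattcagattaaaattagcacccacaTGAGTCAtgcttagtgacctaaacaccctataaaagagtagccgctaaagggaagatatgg
Mmp8 (chr8:13008790-13008889, plus strand): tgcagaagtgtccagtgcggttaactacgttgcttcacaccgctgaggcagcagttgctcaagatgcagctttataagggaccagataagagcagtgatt
Mmp7 (chr8:13132943-13133042, plus strand): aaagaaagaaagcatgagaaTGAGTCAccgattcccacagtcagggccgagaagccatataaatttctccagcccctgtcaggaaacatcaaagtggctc
Timp1 (chrX:3771123-3771222, minus strand): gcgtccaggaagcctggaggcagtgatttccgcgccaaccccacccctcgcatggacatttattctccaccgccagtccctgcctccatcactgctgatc

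The first base of the motif lay 66 bases before the start in Mmp13, 87 in Mmp12, 71 in Mmp3, 61 in Mmp10 and 80 in Mmp7. Mmp1, which had too few counts to test, held it 84 bases before its start. A match is a run of letters, not a shown binding site, and no library here measured binding.

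Of the 48 genes, 38 passed the filter on low counts and were tested. The 10 others were Adamts8, Adamts19, Adamts20, Mmp1, Mmp1b, Mmp11, Mmp20, Mmp21, Mmp27 and Mmp28. Mmp11 and Mmp21 had 0 counts in every library, and the highest single count of the 10 was 52, for Mmp28 in ALN gel library 3. On the scale of FPKM, fragments scaled to gene length and library size, which allows levels of different genes to be set side by side, 5 genes held most of the family transcript. Mmp13 had a mean of 1500.4 FPKM over the 9 libraries, Timp1 818, Timp2 594, Mmp2 404 and Mmp14 361. Together these 5 made up 83.1% to 95.3% of the summed FPKM of the 48 genes in each library. Mmp3 and Mmp12 followed with 117 and 102 FPKM, and the next was Timp3 with 53.3 FPKM.

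In ALN gel against Gel, most of the family lay lower, but Mmp13, its most abundant member, lay higher. Of 38 tested members, 31 had a negative and 7 a positive log2 fold change, with a median of −0.78 beside −0.00 over all 15460 genes tested. The test was edgeR's quasi-likelihood test over all genes with Benjamini-Hochberg adjustment. It called 0 members at an adjusted p under 0.05, as it called 0% of all genes. At an unadjusted p under 0.05, 1 member was higher (2.63%) beside a background of 5.78% of all genes, and 4 were lower (10.5%) beside 2.42%. The higher one was Adamtsl5, and the lower ones were Timp1, Adamts2, Adamts4 and Adamts17. DESeq2 called 0 members beside 0.860% of all genes, and limma-voom with quality weights called 1 member, Adamtsl5, beside 1.70%.

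These counts moved with single libraries. At the unadjusted threshold the 5 members became 2 when ALN gel library 1 was left out, 12 when ALN gel library 3 was, and 3 when Gel library 2, Gel library 3 or ALN gel library 2 was. The median went from −0.78 to −0.36 without ALN gel library 1 and to −1.14 without ALN gel library 3. The mitochondrial share as a covariate, chosen after seeing the data, gave a median of −0.36 and 5 members. For left-out libraries and for this covariate the share of all genes was not counted, here or in the comparisons below. Same-numbered Gel and ALN gel libraries deviated together. With the replicate number as a block the count was 10 members over all 9 libraries and 17 members in a fit of these 6 libraries, beside 9.93% and 14.9% of all genes, and edgeR's adjusted p called 0 members in both.

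In Mg-ALN gel against ALN gel, 23 members had a positive and 15 a negative log2 fold change, with a median of 0.38 beside −0.04 over all genes. This comparison shares its ALN gel libraries with the one above, so their opposite signs are not independent. EdgeR called 0 members by adjusted p, beside 0% of all genes. At the unadjusted threshold 7 members were higher (18.4%), beside 3.76% of all genes: Timp1, Adamts1, Adamts4, Adamts14, Mmp7, Mmp8 and Mmp23. Lower were 3 members (7.89%) beside 5.43%: Mmp13, Adamts13 and Adamtsl5. DESeq2 called 1 member, Timp1, beside 1.19% of all genes, and limma-voom with quality weights called 0 beside 0.0129%. Leaving out ALN gel library 1 gave a median of 0.08 and a count of 6 in place of 10, and leaving out ALN gel library 3 gave 0.87 and 13.

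In Mg-ALN gel against Gel, 14 members had a positive and 24 a negative log2 fold change, with a median of −0.13 beside −0.03. All 3 tools called 0 members by adjusted p, with backgrounds of 0% by edgeR, 0.330% by DESeq2 and 0% by limma-voom. At an unadjusted p under 0.05 edgeR found 0 higher members beside 5.43% of all genes and 1 lower member, Adamts9, beside 3.88%. Leaving out Gel library 1 gave 0, Gel library 2 gave 4, Gel library 3 or Mg-ALN gel library 3 gave 3, and ALN gel library 3 or Mg-ALN gel library 2 gave 2. In a joint test of the 3 groups, 0 members passed an adjusted p, beside 0% of all genes. There 6 members had an unadjusted p under 0.05, beside 9.29% of all genes: Timp1, Adamtsl5, Adamts14, Mmp23, Adamts4 and Adamts13. ALN gel had the lowest group mean CPM for 23 of the 38 (60.5%), as it had for 29.3% of all genes tested.

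**Figure D1:**
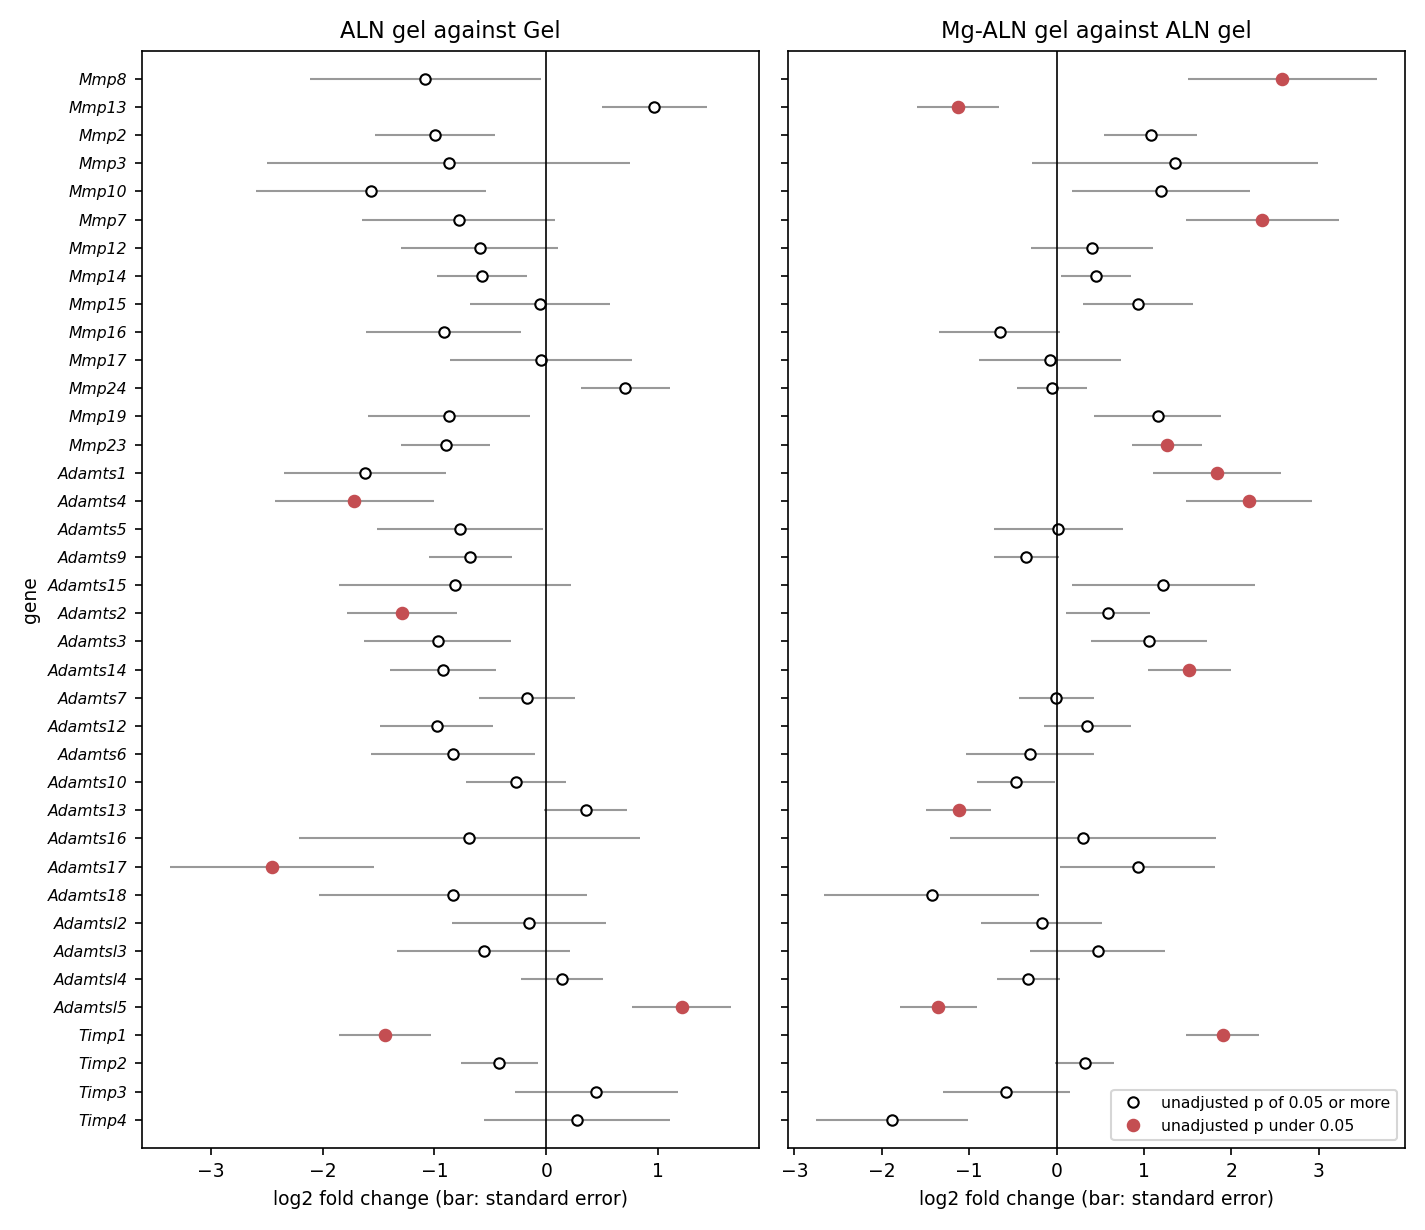
Log2 fold change on the horizontal axis (circle) with its standard error (bar) for each of the 38 tested genes, in ALN gel against Gel on the left and Mg-ALN gel against ALN gel on the right, filled where the unadjusted edgeR p was under 0.05. On the left 31 circles lie below 0, while Mmp13 and Adamtsl5 lie at 0.96 and 1.21, and both panels use the same 3 ALN gel libraries.

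A member can also be read by whether the libraries of 2 groups overlap at all. In ALN gel against Gel, all 3 ALN gel libraries lay above all 3 Gel libraries for 2 members (5.26%), Mmp13 and Adamtsl5, beside 11.1% of all genes, and below them for 3 members (7.89%), Timp1, Mmp23 and Adamts17, beside 5.03%. Mg-ALN gel libraries lay above those of ALN gel for 6 members (15.8%), beside 6.76%: Timp1, Adamts1, Adamts4, Adamts14, Mmp7 and Mmp23. They lay below them for 4 members (10.5%), beside 9.77%: Mmp13, Adamts13, Adamtsl5 and Timp4. Between Mg-ALN gel and Gel, 0 members were apart in either direction, beside 9.76% of all genes above and 8.56% below. The ALN gel libraries lay apart from the other 6 together for 4 members (10.5%), beside 4.51% of all genes in either direction. They were above them for Mmp13 and Adamtsl5 and below them for Timp1 and Mmp23.

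**Figure D2:**
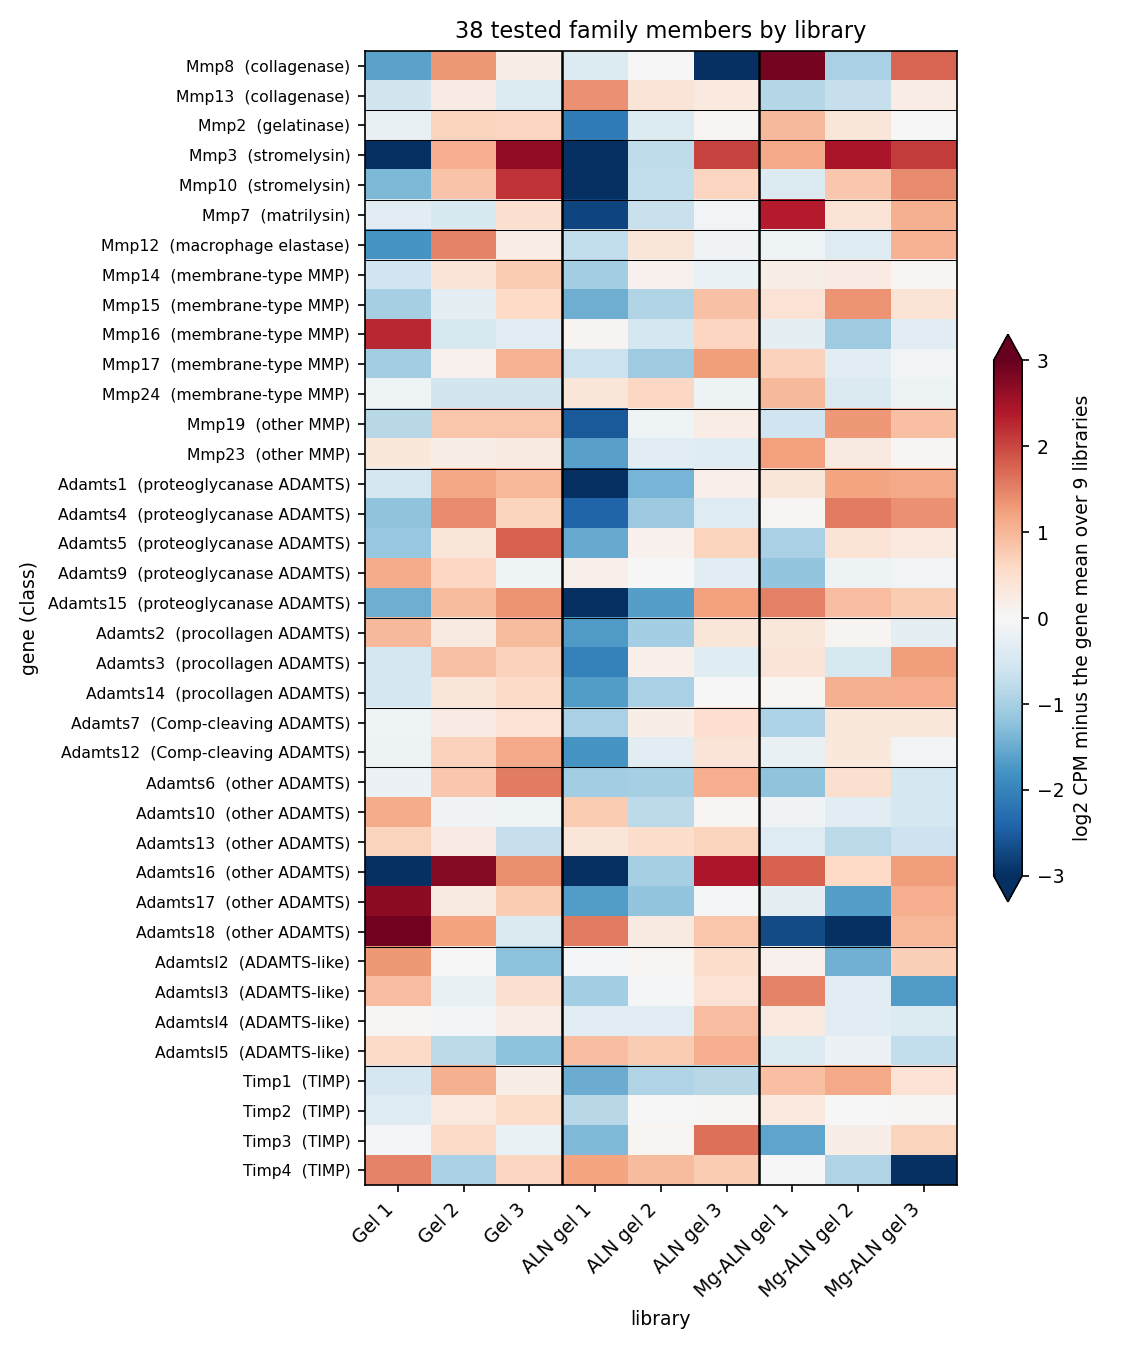
Deviation of log2 CPM from each gene's mean over 9 libraries (colour, red above and blue below, clipped at 3) for the 38 tested genes in rows ordered by class and the libraries in columns. ALN gel library 1 holds the lowest value of 21 rows, and the Timp1 row is blue in all 3 ALN gel libraries.

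Among the inhibitors, Timp1, a soluble TIMP that blocks most secreted Mmp enzymes, had the smallest edgeR p of the 38 in 2 comparisons, ALN gel against Gel and Mg-ALN gel against ALN gel. It stood at 362, 1063 and 583 CPM in Gel libraries 1 to 3, at 183, 273 and 285 CPM in ALN gel and at 958, 1115 and 694 CPM in Mg-ALN gel. All 3 ALN gel libraries lay below the other 6, and Gel and Mg-ALN gel overlapped. The group means were 669 ± 359, 247 ± 55.8 and 922 ± 213 CPM (SD, n = 3 each). The log2 fold change of Timp1 was −1.44 (SE 0.41) in ALN gel against Gel, and its adjusted p was 0.528 by edgeR, 0.0508 by DESeq2 and 0.0549 by limma-voom. Mg-ALN gel against ALN gel gave 1.90 (SE 0.42), and the adjusted p was 0.454 by edgeR, 0.00223 by DESeq2 and 0.126 by limma-voom. So the call for Timp1 depended on the tool. With each library left out in turn, its fold change stayed between −1.74 and −1.0 in the first comparison and between 1.72 and 2.07 in the second. An exact permutation test over the 3 groups (two-sided, 280 ways, smallest p 0.00357) gave p = 0.0179. This p is not adjusted for the 38 members given such a test, and it rests on the same values that set ALN gel apart. Mmp7 (0.0286) and Mmp23 (0.0321) were also under 0.05 in this test. It was run on the family members alone, so the share of all genes was not counted and no result about the family follows. With 3 libraries against 3, an exact test cannot give a p below 0.1.

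Timp1 (ENSRNOG00000010208) lies at chrX:1364786-1369384 on the minus strand in the deposited table and overlaps Syn1, a synapsin gene of nerve cells, on the other strand. Reads of overlapping genes cannot be told apart without strand, but Syn1 had 11 to 44 counts per library. Timp3 overlaps Syn3, with 0 to 16 counts, and Timp4 overlaps Syn2, with 0 to 3 counts. Timp2 overlaps Cep295nl on the same strand, so its counts, and the ratios to it below, are uncertain.

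The other inhibitors overlapped between Gel and ALN gel. Timp2, which inhibits Mmp2 and also helps Mmp14 to activate it, had 743, 1194 and 1426 CPM in Gel, 545, 985 and 986 CPM in ALN gel and 1195, 957 and 989 CPM in Mg-ALN gel. Its groups overlapped, with log2 fold changes of −0.42 (SE 0.34, adjusted p = 0.799 by edgeR) and 0.32 (SE 0.34, adjusted p = 0.787 by edgeR). Timp3, which binds to the matrix and inhibits Adamts enzymes as well, had 76.7, 117 and 67.4 CPM in Gel, 31.3, 81.1 and 244 CPM in ALN gel and 25.9, 88.7 and 124 CPM in Mg-ALN gel. ALN gel library 3 was the highest of the 9 for Timp3 and ALN gel library 1 among the 2 lowest, so its ALN gel libraries spanned more than the distance between groups. Timp4 had the lowest mean of the 4, 1.08 FPKM. Its Mg-ALN gel libraries (1.34, 0.715 and 0.127 CPM) lay below those of ALN gel (3.10, 2.64 and 2.31 CPM), with adjusted p = 0.553 by edgeR.

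Among the collagenases, Mmp13, the main interstitial collagenase of rodents, made by osteoblasts and hypertrophic chondrocytes, was highest in ALN gel, where Timp1 was lowest. The gene (ENSRNOG00000008478, chr8:5522739-5533018, plus strand in the deposited table) had 2445, 4222 and 2699.7 CPM in Gel, 9188, 4689 and 4393 CPM in ALN gel and 1963, 2231 and 4179 CPM in Mg-ALN gel. The 3 ALN gel libraries were the highest of the 9, although the lowest of them, library 3, lay only just above the highest of Gel (library 2) and of Mg-ALN gel (library 3). The group means were 3122 ± 961, 6089.9 ± 2687 and 2791 ± 1209.8 CPM (SD, n = 3 each). Its log2 fold change came to 0.96 (SE 0.47, adjusted p = 0.649 by edgeR) in ALN gel against Gel and −1.13 (SE 0.47, adjusted p = 0.523 by edgeR) in Mg-ALN gel against ALN gel. Without ALN gel library 1, which holds the highest value, these were 0.54 and −0.71. The exact permutation test over the 3 groups gave an unadjusted p = 0.0929.

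The sum of the osteoclast markers, like Mmp13, was highest in ALN gel. The 8 osteoclast markers summed to 15252, 3428 and 1762 CPM in Gel, 25037, 18893 and 15838 CPM in ALN gel and 3053, 8661 and 9825 CPM in Mg-ALN gel, so ALN gel was above the other 6 here too, with Dcstamp at 0 in 7 libraries. ALN gel library 3 lay only just above Gel library 1, and most of each sum was Ctsk and Acp5. All 7 tested markers were positive in ALN gel against Gel, and 4 of them (57.1%) lay above Gel without overlap, beside 11.1% of all genes. Acp5 overlapped, at 6394 CPM in Gel library 1 against 5517 and 5363 CPM in ALN gel libraries 2 and 3, as did Ocstamp and Oscar. Markers of hypertrophic chondrocytes summed to 119 to 488 CPM in Gel, 121 to 299 in ALN gel and 38.6 to 142 in Mg-ALN gel. These sums, most of each Pth1r, did not separate the groups. Col10a1, the defining marker, was at 0 in 3 libraries. It had 12.3, 7.15 and 0.304 CPM in ALN gel and lay lower in Mg-ALN gel without overlap (log2 fold change −6.48, adjusted p = 0.502 by edgeR). Its Gel libraries had 0.854, 0 and 23.6 CPM. All 3 tested markers were negative in Mg-ALN gel against ALN gel. Osteoblast markers summed to 40819 to 104690 CPM in Gel, 16104 to 31283 in ALN gel and 28624 to 36066 in Mg-ALN gel. Most of each sum was Col1a1, at 38606 to 97454 CPM in Gel, 10756 to 29177 in ALN gel and 26548 to 33366 in Mg-ALN gel. Of the 8 osteoblast markers, 6 were negative in ALN gel against Gel and 2 positive, Ibsp (0.44) and Runx2 (0.17). The part of these cell types in the Mmp13 values was not tested.

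Mmp8, the collagenase stored in neutrophil granules, had 8.68, 65.6 and 30.3 CPM in Gel, 19.9, 26.7 and 2.98 CPM in ALN gel and 194, 13.6 and 89.6 CPM in Mg-ALN gel. All 3 groups overlapped, although Mg-ALN gel libraries 1 and 3 were the highest of the 9. Its log2 fold change in Mg-ALN gel against ALN gel was 2.58 (SE 1.08, adjusted p = 0.523 by edgeR), and 1.65 without Mg-ALN gel library 1. The 9 neutrophil markers summed to 8286, 540 and 1946 CPM in Mg-ALN gel, 531, 458 and 85.0 CPM in ALN gel and 130, 950 and 571 CPM in Gel, with Ltf at 0 in 8 of the 9 libraries. The 2 libraries highest in Mmp8 were thus the 2 highest in the sum of these markers, of which S100a8 alone made up 3422 CPM in Mg-ALN gel library 1. The part of neutrophils in the Mmp8 values was not tested. Mmp1 and Mmp1b, the rodent relatives of human interstitial collagenase, reached at most 21 and 2 counts in a library.

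**Figure D3:**
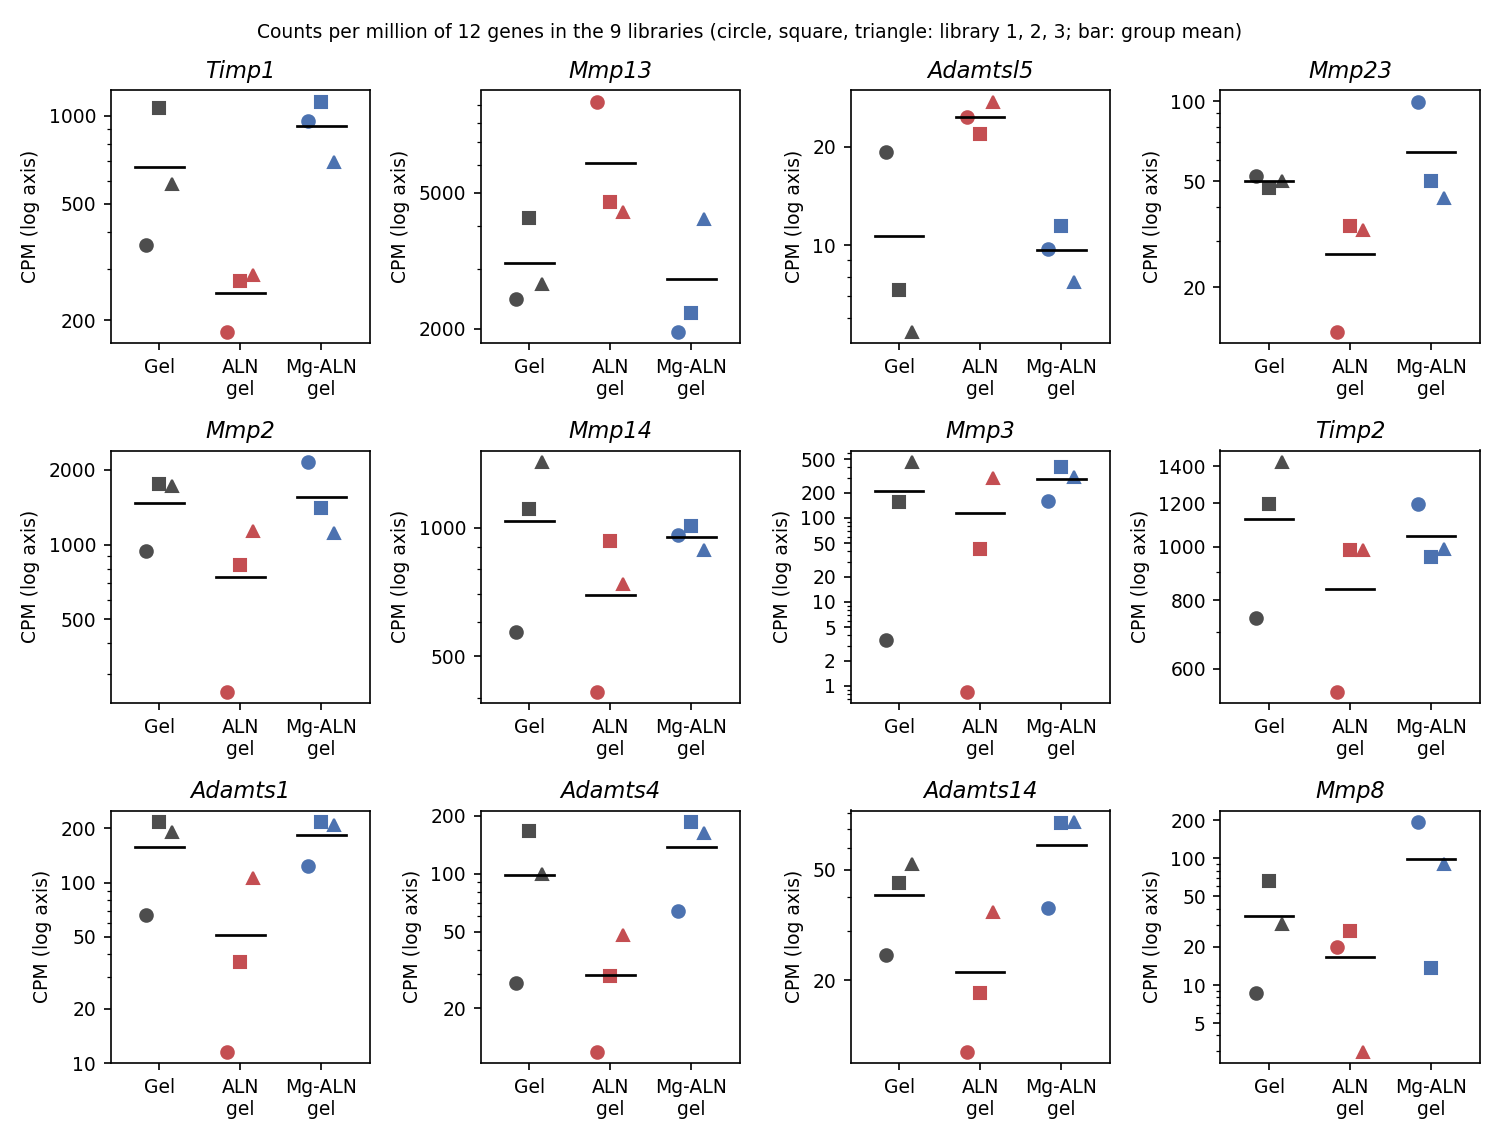
CPM on a log axis for 12 family genes in the 9 libraries (circle, square and triangle for libraries 1, 2 and 3 of a group, bar for the group mean). In the Timp1 and Mmp23 plots the ALN gel points lie below all others, in those of Mmp13 and Adamtsl5 they lie higher than all others, and the circle of ALN gel library 1 is the lowest point in 9 of the 12.

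The balance of Mmp13 and its inhibitor can be read within each library, where scaling between libraries cancels. The ratio of Mmp13 to Timp1 FPKM stood at 1.92, 1.13 and 1.32 in the 3 Gel libraries, at 14.3, 4.89 and 4.39 in those of ALN gel and at 0.583, 0.569 and 1.71 in those of Mg-ALN gel. Its group means were 1.46 ± 0.414, 7.86 ± 5.59 and 0.955 ± 0.656 (SD, n = 3 each). All 3 ALN gel libraries lay above the other 6, the lowest of them at 4.39 against 1.92 in the highest other library. In CPM, ALN gel lay above the other 6 for Mmp13 and below them for Timp1. Their ratio therefore had to set ALN gel apart, and this separation is not a further result. The ratio of Mmp13 to Timp2 came to 2.10, 2.26 and 1.21 for Gel, 10.8, 3.04 and 2.85 for ALN gel and 1.05, 1.49 and 2.70 for Mg-ALN gel, where the groups stood apart by a small gap only. Of 12 ratios of Mmp13, Mmp2, Mmp14 and Mmp3 to Timp1, Timp2 and Timp3, these 2 put ALN gel above the other 6 libraries and 0 put it below. The ratios were chosen after the values were seen and carry no test, and the share over other pairs of genes was not counted.

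Mmp13 took 22.6% to 33.7% of the family's summed FPKM in Gel, 42.0% to 77.2% in ALN gel and 17.2% to 34.6% in Mg-ALN gel. Timp1 took 17.1% to 25.9%, 5.40% to 9.75% and 20.2% to 33.4%. The 77.2% belongs to ALN gel library 1, and the other ALN gel libraries had 47.7% and 42.0%, still above the other 6.

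**Figure D4:**
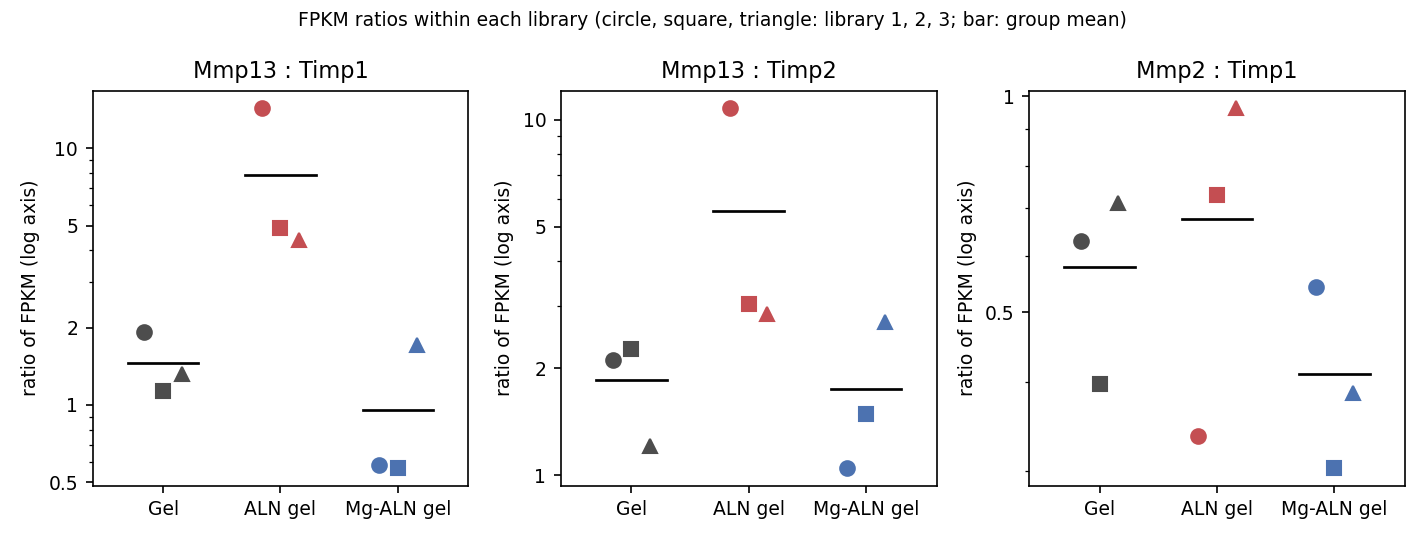
Ratio of FPKM values within each library on a log axis, Mmp13 to Timp1 (left), Mmp13 to Timp2 (middle) and Mmp2 to Timp1 (right), with circle, square and triangle for libraries 1, 2 and 3 of a group and a bar for the group mean. The ALN gel points lie above all others on the left (4.39 to 14.3) and in the middle (2.85 to 10.8), and overlap the other groups on the right.

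The gelatinase and the membrane-type enzymes had no unadjusted p under 0.05 by edgeR in any comparison, although DESeq2 gave 1 to Mmp16 and limma-voom to Mmp15 and Mmp24, and both gave 1 to Mmp2. Mmp2, a gelatinase of mesenchymal cells, had 943, 1750.4 and 1716 CPM in Gel, 255, 824 and 1137 CPM in ALN gel and 2154, 1404 and 1112 CPM in Mg-ALN gel. ALN gel library 1 was the lowest by far, library 2 lay just under the other groups and library 3 lay inside them. Its log2 fold changes, with ALN gel library 1 included, were −0.99 (SE 0.53, adjusted p = 0.685 by edgeR) and 1.07 (SE 0.54, adjusted p = 0.575 by edgeR). Fibroblast markers summed to 12302, 25208 and 23983 CPM in Gel, 3131, 11447 and 25493 CPM in ALN gel and 30529, 26732 and 20932 CPM in Mg-ALN gel, so the library lowest in Mmp2 was the lowest in this sum and the library highest in Mmp2, Mg-ALN gel 1, the highest. Col3a1 alone made up 18081 CPM of that highest sum. Libraries between these did not all follow: ALN gel library 3 exceeded Gel libraries 2 and 3 in the sum but lay below both in Mmp2. Of the 7 markers, 6 were negative in ALN gel against Gel. The other, Fap, went the opposite way (0.81, adjusted p = 0.599 by edgeR). It had 129, 82.5 and 62.1 CPM in Gel and 170, 123 and 186 CPM in ALN gel. The part of fibroblasts in the Mmp2 values was not tested.

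Mmp14, the membrane-bound collagenase that activates Mmp2 and on which bone remodelling depends, had 571, 1106 and 1423 CPM in Gel, 413, 929.6 and 739 CPM in ALN gel and 960.2, 1006 and 884 CPM in Mg-ALN gel. Its Mg-ALN gel libraries lay close together within the wide range of Gel, and the groups overlapped. The log2 fold changes were −0.57 (SE 0.40, adjusted p = 0.759 by edgeR) and 0.45 (SE 0.40, adjusted p = 0.739 by edgeR). Mmp16, another transmembrane enzyme, had 112, 16.7 and 18.7 CPM in Gel, 25, 16.3 and 36.6 CPM in ALN gel and 19.5, 11.3 and 18.8 CPM in Mg-ALN gel. Only Gel library 1 was high, and Mg-ALN gel against Gel gave adjusted p = 0.530 by edgeR. Mmp15, Mmp17 and Mmp24 had at most 51.9, 3.28 and 23.6 CPM in a library.

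Among the stromelysins, Mmp3 had the largest standard error of the 38 tested members. It digests proteoglycans and activates procollagenases, and it had 3.56, 156 and 463 CPM in Gel, 0.853, 43.0 and 296 CPM in ALN gel and 160.1, 400.2 and 310.2 CPM in Mg-ALN gel. Library 1 of Gel and library 1 of ALN gel were nearly empty of it, while each other library had at least 43.0 CPM. Its log2 fold change of −0.87 (SE 1.62, adjusted p = 0.935 by edgeR) in ALN gel against Gel became 0.40 without Gel library 3, −3.31 when ALN gel library 3 was left out, and 0.13 under a mitochondrial covariate, so no direction was set. Mmp10, its close relative and chromosomal neighbour, had 2.35, 11.0 and 27.1 CPM in Gel, 0.543, 3.58 and 9.48 CPM in ALN gel and 4.49, 10.5 and 16.2 CPM in Mg-ALN gel. It too was lowest in the first libraries of Gel and ALN gel, and its adjusted p was 0.739 and 0.732 by edgeR in ALN gel against Gel and in Mg-ALN gel against ALN gel.

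Mmp12, the elastase of macrophages, had 45.4, 429 and 179 CPM in Gel, 92.9, 197 and 144 CPM in ALN gel and 141, 119 and 314 CPM in Mg-ALN gel, with overlapping groups. Macrophage markers summed to 926 to 2142 CPM over the 9 libraries, with no marker at 0. Mmp7, matrilysin, an enzyme better known from epithelia, was rare, at 0.569, 0.508 and 1.0 CPM in Gel, 0.0776, 0.439 and 0.668 CPM in ALN gel and 3.78, 0.953 and 1.52 CPM in Mg-ALN gel. Its Mg-ALN gel libraries lay above those of ALN gel, with a log2 fold change of 2.35 (SE 0.88, adjusted p = 0.502 by edgeR), on counts of 1 to 48 per library, and without Mg-ALN gel library 1 it was 1.61.

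In 2 of the 3 comparisons Mmp13 had the opposite sign to the other tested genes of its cluster. These 2 comparisons share their ALN gel libraries, so their signs are not independent. The log2 fold change of Mmp13 in ALN gel against Gel was 0.96 (SE 0.47). The other 5 tested genes had values from −1.57 (Mmp10) to −0.59 (Mmp12), among them Mmp3, whose direction was not set. The SE was larger than the fold change for Mmp12 (SE 0.70), Mmp3 (−0.87, SE 1.62) and Mmp7 (−0.78, SE 0.86). For Mg-ALN gel against ALN gel, Mmp13 had −1.13 while the other 5 had 0.41 (Mmp12) to 2.58 (Mmp8). For Mg-ALN gel against Gel, Mmp13 (−0.16), Mmp12 (−0.19) and Mmp10 (−0.37) were negative and the other 3 positive. By edgeR, 0 of the 6 had an unadjusted p under 0.05 in ALN gel against Gel, where 5.78% of all genes were higher and 2.42% lower, while DESeq2 gave 1 to Mmp13. For Mg-ALN gel against ALN gel edgeR gave Mmp8 and Mmp7 as higher, beside 3.76% of all genes, and Mmp13 as lower, beside 5.43%. Whether Mmp13 differs from its neighbours beyond the spread was not tested. The letters TGAGTCA shown above stand in the promoters of Mmp13 and of 4 of these 5 neighbours alike.

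**Figure D5:**
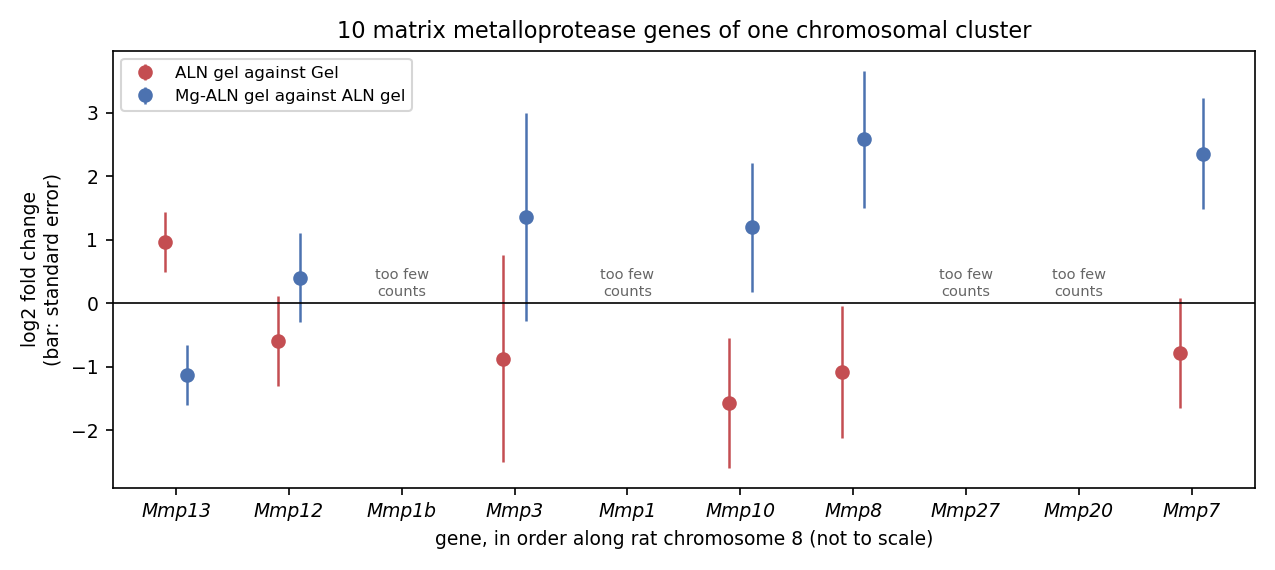
Log2 fold change (point) with its standard error (bar) on the vertical axis for the 10 Mmp genes of the chromosome 8 cluster, in their order along the chromosome but not to scale, in ALN gel against Gel (red) and Mg-ALN gel against ALN gel (blue). Mmp13 is the only gene with red above and blue below 0, and 4 genes had too few counts to test. Both colours use the same ALN gel libraries.

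Of the remaining Mmp genes, Mmp23, an unusual membrane-anchored enzyme without a hemopexin domain, had 52.5, 47.2 and 50.3 CPM in Gel, 13.7, 34.0 and 32.8 CPM in ALN gel and 99.3, 50.3 and 43.5 CPM in Mg-ALN gel. Its gene (ENSRNOG00000017477) lies at chr5:173078590-173081839. The Gel libraries lay close together, and all 3 ALN gel libraries lay below them and below Mg-ALN gel. The fit gave a log2 fold change of −0.90 (SE 0.40, adjusted p = 0.610 by edgeR) in ALN gel against Gel and 1.26 (SE 0.40, adjusted p = 0.496 by edgeR) in Mg-ALN gel against ALN gel. Without ALN gel library 1 these were −0.58 and 0.94, and without Mg-ALN gel library 1 the second was 0.81. The exact permutation test over the 3 groups gave an unadjusted p = 0.0321. Mmp19, a secreted enzyme of wide distribution, had 41.3, 129.7 and 129.8 CPM in Gel, 12.7, 66.6 and 84.9 CPM in ALN gel and 48.6, 182 and 137 CPM in Mg-ALN gel, with overlapping groups.

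Of the 7 proteoglycan-cleaving ADAMTS enzymes 5 were tested, and all 5 had a negative log2 fold change in ALN gel against Gel, with a median of −0.81. By edgeR 1 of these 5, Adamts4, was lower at an unadjusted p under 0.05, beside 2.42% of all genes, while DESeq2 gave such a p to Adamts1 as well and limma-voom to Adamts1 and Adamts15. Of the 5, 4 were positive in Mg-ALN gel against ALN gel, with a median of 1.22, and 2, Adamts1 and Adamts4, had an unadjusted p under 0.05 by edgeR, beside 3.76% of all genes higher.

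Adamts4, an aggrecanase, had 27.0, 167 and 100 CPM in Gel, 11.9, 29.4 and 48.1 CPM in ALN gel and 64.1, 186 and 163 CPM in Mg-ALN gel. Mg-ALN gel lay wholly above ALN gel, and Gel library 1 fell among the ALN gel values. The fit gave log2 fold changes of −1.72 (SE 0.71, adjusted p = 0.585 by edgeR) and then 2.20 (SE 0.72, adjusted p = 0.496 by edgeR). Without Gel library 2 the first was −1.17. Adamts1, which cleaves versican, had 66.2, 216 and 191 CPM in Gel, 11.6, 36.3 and 106 CPM in ALN gel and 124, 217 and 209.7 CPM in Mg-ALN gel. It showed the same layout, with Gel library 1 again inside the ALN gel range and ALN gel library 1 far below all others. Fold changes on the log2 scale were −1.62 (SE 0.73, adjusted p = 0.613 by edgeR) and 1.84 (SE 0.73, adjusted p = 0.510 by edgeR). Without ALN gel library 3 these were −2.78 and 2.95, and without ALN gel library 1 they were −1.14 and 1.36.

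Adamts5, the other main aggrecanase and the neighbour of Adamts1 on chromosome 11, had 8.11, 22.9 and 60.4 CPM in Gel, 6.21, 19.3 and 28.1 CPM in ALN gel and 8.99, 23.6 and 21.7 CPM in Mg-ALN gel. Library 1 was the lowest of each group, and ALN gel and Mg-ALN gel had a log2 fold change of 0.02 between them (SE 0.74, adjusted p = 0.995 by edgeR). Adamts9, which also cleaves versican, had 118, 84.2 and 49.9 CPM in Gel, 60.2, 54.3 and 43.1 CPM in ALN gel and 24, 48.8 and 51.3 CPM in Mg-ALN gel. By edgeR, though not by DESeq2, it was the sole member with an unadjusted p under 0.05 in Mg-ALN gel against Gel (log2 fold change −1.02, SE 0.37, adjusted p = 0.530 by edgeR), although the groups overlapped. Adamts15 ranged from 2.17 to 76.8 CPM with overlapping groups. Chondrocyte markers, of interest because aggrecan is their product, summed to 65.2 to 1031 CPM, highest in ALN gel library 3 and lowest in Mg-ALN gel library 3, and Matn1 was at 0 in 8 libraries. Most of the highest sum was Comp (573 CPM) and Acan (352.5 CPM). All 8 tested markers were negative in Mg-ALN gel against ALN gel (median −3.77) and against Gel (median −2.28). At an unadjusted edgeR p under 0.05, 2 (25%) were lower beside 5.43% of all genes, and 3 (37.5%) beside 3.88%. By adjusted p, 0 were called.

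The 3 procollagen peptidases were all negative in ALN gel against Gel (median −0.97) and positive in Mg-ALN gel against ALN gel (median 1.06). Adamts2, which trims the amino-terminal propeptide of type I procollagen, had 261, 159 and 256 CPM in Gel, 40.4, 65.1 and 171 CPM in ALN gel and 167, 140.0 and 109 CPM in Mg-ALN gel. ALN gel libraries 1 and 2 were the lowest of the 9 and ALN gel library 3 lay among the others, with a log2 fold change of −1.29 against Gel (SE 0.49, adjusted p = 0.563 by edgeR). Adamts14, its close relative, had 24.6, 45 and 52.6 CPM in Gel, 11.0, 18.0 and 35.3 CPM in ALN gel and 36.3, 73.7 and 74.5 CPM in Mg-ALN gel. Mg-ALN gel lay above ALN gel without overlap by about 1 CPM, with a log2 fold change of 1.52 (SE 0.48, adjusted p = 0.496 by edgeR). Adamts3, the relative with the lowest level, had 1.16 to 11.6 CPM and overlapping groups.

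The remaining ADAMTS genes are the 2 that cleave cartilage oligomeric matrix protein and 6 others with enough counts to test. Of the 6 others, 5 were negative in ALN gel against Gel, all 6 in Mg-ALN gel against Gel (median −0.95) and 4 in Mg-ALN gel against ALN gel. Adamts7 and Adamts12, the pair that cleaves the matrix protein, were negative in ALN gel against Gel and in Mg-ALN gel against Gel. Adamts7 had 56.8, 74.0 and 84.2 CPM in Gel, 31.7, 70.2 and 89.0 CPM in ALN gel and 32.9, 78.1 and 79.6 CPM in Mg-ALN gel, with a log2 fold change of −0.17 (SE 0.43) in ALN gel against Gel. Adamts12 had 57.7, 103 and 139 CPM in Gel, 18.8, 50.4 and 83.0 CPM in ALN gel and 54.4, 79.8 and 60.1 CPM in Mg-ALN gel, with a log2 fold change of −0.98 (SE 0.50, adjusted p = 0.668 by edgeR). Groups overlapped for both.

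Adamts10 and Adamts17 act on fibrillin microfibrils. Adamts17 had 15.1, 2.76 and 3.95 CPM in Gel, 0.698, 1.0 and 2.25 CPM in ALN gel and 1.89, 0.715 and 4.95 CPM in Mg-ALN gel. ALN gel lay below Gel without overlap, and the log2 fold change of −2.45 (SE 0.91, adjusted p = 0.563 by edgeR) was −1.34 without Gel library 1. Adamts10 had 197, 84.4 and 81.9 CPM in Gel, 154, 52.5 and 94.6 CPM in ALN gel and 84.3, 71.8 and 62.3 CPM in Mg-ALN gel, where library 1 of Gel and of ALN gel were the highest. Adamts18 had 61.9, 19.1 and 6.08 CPM in Gel, 24.4, 9.91 and 14.6 CPM in ALN gel and 1.26, 0.298 and 16.5 CPM in Mg-ALN gel and overlapped throughout.

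Adamts13, which cuts von Willebrand factor in blood, had 12.7, 9.31 and 4.89 CPM in Gel, 10.2, 11.5 and 12.5 CPM in ALN gel and 6.07, 4.53 and 5.14 CPM in Mg-ALN gel. Mg-ALN gel lay below ALN gel without overlap (log2 fold change −1.12, SE 0.37, adjusted p = 0.496 by edgeR). It overlaps Cacfd1 on the same strand, so its counts are uncertain. Adamts6 and Adamts16 had at most 11.7 and 14.8 CPM and no unadjusted p under 0.05 by edgeR, while limma-voom gave 1 to Adamts6 in ALN gel against Gel.

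Among the ADAMTS-like genes, whose products sit in the matrix without cutting it, Adamtsl5, a protein that binds heparin and fibrillin, was, like Mmp13, highest in ALN gel. It had 19.2, 7.33 and 5.45 CPM in Gel, 24.7, 21.9 and 27.4 CPM in ALN gel and 9.77, 11.4 and 7.75 CPM in Mg-ALN gel. All 3 ALN gel libraries lay above the other 6, and Gel library 1 came closest to them. Its log2 fold change came to 1.21 (SE 0.44, adjusted p = 0.560 by edgeR, 0.262 by DESeq2 and 0.0328 by limma-voom) in ALN gel against Gel. Without Gel library 1 it was 1.94, and without Gel library 3 it was 0.85. Mg-ALN gel against ALN gel gave −1.35 (SE 0.44, adjusted p = 0.496 by edgeR). For Adamtsl5 the exact permutation test over the 3 groups gave an unadjusted p = 0.0786. Adamtsl5 (ENSRNOG00000033787, chr7:12229379-12234576) overlaps the gene AC120291.3 on the other strand, so its counts are uncertain. Adamtsl4, which binds fibrillin-1, had 31.5, 29.3 and 36.1 CPM in Gel, 24.3, 24.3 and 58.2 CPM in ALN gel and 37.5, 24.7 and 23.2 CPM in Mg-ALN gel, with overlapping groups. Adamtsl2 and Adamtsl3 had at most 12 and 8.91 CPM and overlapping groups.

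Genes that work beside the family were read from a list of 40 activators, inhibitors, receptors and other matrix proteases, of which 39 were in the table and 32 were tested. In ALN gel against Gel, 26 had a negative and 6 a positive log2 fold change (median −0.73). At an unadjusted edgeR p under 0.05, 1 was higher (3.12%), beside 5.78% of all genes, and 5 were lower (15.6%), beside 2.42%, and 0 passed an adjusted p. Ctsk, on this list and among the osteoclast markers, had the highest value, 1.61 (adjusted p = 0.636 by edgeR). The higher one was Bsg, the cell-surface inducer of Mmp genes (0.58, adjusted p = 0.599 by edgeR). The lower ones were Pcsk5, a proprotein convertase (−2.68), Bmp1, the carboxy-terminal procollagen peptidase (−0.94), Pcolce, its enhancer (−0.93), Ctsl, a cathepsin (−1.86), and Adam19, a membrane-bound relative of the ADAMTS enzymes (−1.30).

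Bmp1 had 459.5, 311 and 324 CPM in Gel, 178, 170.0 and 224 CPM in ALN gel and 225, 304 and 282 CPM in Mg-ALN gel. ALN gel lay below the other 6 libraries, closest to Mg-ALN gel library 1, with adjusted p = 0.528 by edgeR in ALN gel against Gel. Of the 32, 21 were positive and 11 negative in Mg-ALN gel against ALN gel (median 0.53). Higher at the unadjusted threshold were 4, beside 3.76% of all genes, namely Plat, the tissue plasminogen activator (2.26), Pcsk5 (2.13), Adam19 (1.11) and Pcolce (0.95), lower was 1, beside 5.43%, Papln (−2.09), and 0 passed an adjusted p by edgeR. Against Gel, Mg-ALN gel had 1 of the 32 lower at that threshold (3.12%), beside 3.88% of all genes, Pcsk6 (−1.80). Higher were 0, beside 5.43%.

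Of 21 transcription factors and cytokines known to induce family genes, 20 were tested. In ALN gel against Gel 18 were negative and 2 positive (median −0.73), and 1, Cebpb, was lower at an unadjusted p under 0.05, beside 2.42% of all genes (−1.82, adjusted p = 0.564 by edgeR). For Mg-ALN gel against ALN gel 16 were positive and 4 negative (median 0.50), and 3 were higher, beside 3.76%: Il6 (4.48), Cebpb (1.61) and Junb (1.28). Of the 20, 0 passed the unadjusted threshold in Mg-ALN gel against Gel, beside 5.43% of all genes higher and 3.88% lower. By adjusted p edgeR called 0 of them in all 3 comparisons. Il6, an inflammatory cytokine, had 1.49, 22.8 and 15.8 CPM in Gel, 0, 5.15 and 0.851 CPM in ALN gel and 62.1, 46.8 and 27.4 CPM in Mg-ALN gel. Mg-ALN gel lay above both other groups, and ALN gel libraries 1 and 3 were the lowest. Of the AP-1 genes whose motif marks the promoters above, Fos had 101, 102 and 302 CPM in Gel, 19.2, 32.9 and 211 CPM in ALN gel and 69.7, 415 and 159 CPM in Mg-ALN gel, and Jun had 139, 239 and 209, 154, 169.7 and 204 and 182, 278 and 202 CPM. Groups overlapped for both, with adjusted p = 0.853 for Fos and 0.928 for Jun in ALN gel against Gel by edgeR. Like these, Fosb (−0.96), Fosl1 (−0.76), Fosl2 (−0.49), Junb (−1.02) and Jund (−0.25) were negative in ALN gel against Gel, each at an unadjusted edgeR p of 0.05 or more. In Mg-ALN gel against ALN gel Fosl2 was negative (−0.34) and the other AP-1 genes listed were positive. Junb lay above ALN gel there without overlap, beside 6.76% of all genes.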

How the data were processed

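Poly-A RNA was read in 9 libraries, 3 each of Gel, ALN gel and Mg-ALN gel, grouped by their titles. The authors deposited read counts per gene as whole numbers and FPKM values, and both were used as deposited. Tools in the submitters' processing notes, listed without roles, are featureCounts 1.5.0-p3, HISAT2 2.0.5, StringTie 1.3.3b, edgeR 3.22.5, DESeq2 1.20.0 and fastp. The genome build is not given in the sources used here. Each deposited FPKM value was the count divided by gene length and 1 constant per library, which lay within 0.804 to 1.19 times the scaled column total. Per the labels' protocols no strand marking is described, so counts of overlapping genes are uncertain.

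The tests used edgeR 4.0.16 in R 4.3.3 (filterByExpr defaults, TMM, quasi-likelihood fit of all 9 libraries, Benjamini-Hochberg over 15460 genes, threshold 0.05, two-sided), which was tested on simulated data. Each standard error was computed as the log2 fold change over the root of its F statistic. Alternatives were DESeq2 1.42.0, voom with quality weights in limma 3.58.1, RLE scaling, no filter, a replicate block, a mitochondrial covariate and leaving out libraries. The common biological coefficient of variation was 51.4%, and counts of all pairs of libraries differed by at least 57.2 chi-square units per degree of freedom, so all 9 were kept as replicates.

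Values in every library are given for 28 members: those with an unadjusted edgeR p under 0.05 in a pairwise comparison, those with 1 group apart from the other 6 libraries, the 2 with the highest FPKM of each class, and 12 fixed genes. The members and lists were chosen with earlier results of these data known. The labels do not say that a replicate number marks a shared animal or day. Across genes, same-numbered libraries of Gel and ALN gel had deviations from their group mean that correlated at r = 0.341, 0.419 and 0.226. The same check gave −0.0767, −0.0452 and −0.199 for Gel with Mg-ALN gel. It gave 0.130, −0.120 and −0.127 for ALN gel with Mg-ALN gel. A pairing thus rests on the data alone and concerns Gel and ALN gel only, and the main fit has no block.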

Additional observations from a re-analysis of the deposited data

How the results depend on the processing

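By adjusted p, edgeR called 0 members in each comparison under RLE scaling, no filter, the replicate block, the mitochondrial covariate and every left-out library, while limma-voom with quality weights called 1 in ALN gel against Gel and DESeq2 called 1 in Mg-ALN gel against ALN gel. The count at an unadjusted p under 0.05 in ALN gel against Gel, 5, became 8 with DESeq2, 12 with limma-voom, 9 with no filter, 10 with the replicate block, 17 with the replicate block in the 6 Gel and ALN gel libraries alone, and 2 to 12 with 1 library left out. In Mg-ALN gel against ALN gel the 10 became 6 to 13 with 1 library left out and 12 with the replicate block. In Mg-ALN gel against Gel the 1 became 4 with DESeq2, 0 with limma-voom, 2 with no filter, 4 with the mitochondrial covariate and 0 to 4 with 1 library left out. The replicate block, which changed no call by adjusted p, left that 1 in place. The cause was not tested for any of these shifts. In ALN gel against Gel, 9.93% of all genes passed with the replicate block and 14.9% with the block in the 6 libraries alone. Under the other settings the share of all genes was not counted. Those counts thus do not show a shift particular to the family. The mitochondrial covariate, the 6-library block and the joint removal of both first libraries were chosen after seeing the data.

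The medians stayed negative in ALN gel against Gel (−1.14 to −0.36) and positive in Mg-ALN gel against ALN gel (0.08 to 0.87) under all alternatives, and in Mg-ALN gel against Gel turned from −0.13 to 0.19 with the mitochondrial covariate and to 0.00 without Gel library 3. Leaving out both first libraries of Gel and ALN gel gave −0.57, 0.12 and −0.21, with 5, 7 and 1 members at the unadjusted threshold. Of 460 alternatives for 28 gene fold changes 458 kept their direction, and the other 2 reversed Mmp3 in ALN gel against Gel, at 0.40 without Gel library 3 (range −3.31 to 0.40 with 1 library left out) and 0.13 with the mitochondrial covariate. Limits are 3 libraries a group, low counts in Mmp7, Timp4 and Adamts17, and ALN gel library 1.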
